A study of Homo sapiens with 8 samples.

Results

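The clustered histone genes are the 71 genes, of 24252 in each table, whose symbol starts with HIST1H, HIST2H, HIST3H or HIST4H. They were measured by RNA sequencing in HaCaT cells, a spontaneously immortalised human keratinocyte line. The tested cells, labelled OGD-R, had been deprived of oxygen and glucose and then returned to both (4 libraries, taken at a stage called early), and the cells they are set against were labelled Control (4 libraries). The labels give no durations, passage or cell density, and they do not state that libraries of a group come from separate cultures, so p-values may measure technical spread.

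Histones are the proteins around which DNA is wound: H2A, H2B, H3 and H4 form the core of the nucleosome, and H1 is the linker histone that sits where DNA enters and leaves it. Most of their genes lie in clusters, have no introns and are transcribed mainly in S phase, when new DNA has to be packed. Their messenger RNAs normally lack a poly(A) tail. They end just after a short stem-loop, which is bound by SLBP and cut with the help of the U7 small nuclear RNP. Some clustered genes also give polyadenylated transcripts that run past the stem-loop or are spliced, and these are known from non-dividing and differentiating cells. An mRNA library made by poly(A) selection would hold mainly such transcripts; whether poly(A) RNA was selected here is not stated beyond the mRNA kit named in the labels.

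The members fall into 6 H1, 17 H2A, 18 H2B, 15 H3 and 15 H4 genes. The large HIST1 locus holds 55 of them on chromosome 6 (GRCh38, 25726132 to 27893843). HIST2 has 12 members on chromosome 1, of which 11 lie between 149782689 and 149887916, and HIST3 has 3 members further along chromosome 1 (228424845 to 228460470). HIST4 is a single gene, HIST4H4, on chromosome 12 (14767999 to 14771131, minus strand). GENCODE lists all of them as protein-coding, HIST2H3PS2 included.

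The stem-loop is shown because it sets where a classical histone transcript stops, and the annotated ends of these genes lie on either side of it. It was searched for in the GENCODE transcripts on the sense strand as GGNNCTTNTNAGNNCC with all 6 stem positions paired (G with T allowed). It was found in 32 of the 71 members, in 6 forms, and in 65 of all 58676 genes of the transcript set (0.111%). The 16 bases of the stem-loop are in capitals and the flanks in lower case, 5′ to 3′, written as DNA; the names give the member each was read from.
HIST2H2BE: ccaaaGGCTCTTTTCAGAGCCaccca
HIST1H2BD: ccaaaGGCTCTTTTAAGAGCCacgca
HIST1H4H: ccaaaGGCCCTTTTCAGGGCCgccca
HIST2H4A: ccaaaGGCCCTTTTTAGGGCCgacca
HIST1H3E: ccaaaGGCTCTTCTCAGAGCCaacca
HIST1H2AG: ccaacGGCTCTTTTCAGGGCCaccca
The form shown for HIST2H2BE was the commonest, in 17 members of classes H2A, H2B and H3. The form shown for HIST1H2BD stood in 5 members, that of HIST1H4H in 5 and that of HIST2H4A in 3. All 8 members with a form that begins GGCCC were H4 genes. The forms of HIST1H3E and HIST1H2AG each stood in that member alone. For the 39 members without a match, the annotated transcript in most cases covers the coding length only, so the letters past it were not read.

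Promoters are shown for a pair of called genes and for the member whose Control values differ most. The window is the 250 bases before the RefSeq start, 5′ to 3′ in the gene's direction, with searched motifs in capitals. HIST1H2AG (chr6:27132793-27133042, plus strand, GRCh38.p14) shares the space before its start with HIST1H2BJ, which is transcribed the other way from 292 bases away. HIST2H2BE (chr1:149886683-149886932, minus strand) faces HIST2H2AC in the same manner.
HIST1H2AG: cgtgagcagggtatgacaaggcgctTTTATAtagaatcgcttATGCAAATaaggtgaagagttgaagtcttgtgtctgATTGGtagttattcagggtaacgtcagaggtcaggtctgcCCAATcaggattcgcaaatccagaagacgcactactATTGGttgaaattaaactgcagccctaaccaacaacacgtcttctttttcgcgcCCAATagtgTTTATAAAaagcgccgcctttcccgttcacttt
HIST2H2BE: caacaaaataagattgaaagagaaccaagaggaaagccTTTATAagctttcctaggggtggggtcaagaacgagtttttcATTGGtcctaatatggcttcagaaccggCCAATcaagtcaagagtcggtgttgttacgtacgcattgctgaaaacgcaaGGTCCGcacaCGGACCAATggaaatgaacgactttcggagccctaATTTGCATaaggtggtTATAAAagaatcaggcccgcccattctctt
The motifs were searched on both strands in windows of 300 bases, 250 before to 50 after the start. ATTTGCAT, the octamer bound by POU2F1, was in 9 of 13 H2B and 11 of 16 H2A promoters, in 0 of 13 H4 promoters and in 1.8% of 27305 RefSeq promoters. H2A and H2B genes that face each other share part of their windows, so these counts are not independent. GGTCCG, the core letters of the H4 element bound by HINFP, was in 12 of 13 H4 promoters and in 11.2% of all. CCAAT was in 51 of 61 members and 35.7% of all promoters, and TATAAA in 41 members and 12.0% of all. TTTGGCGC, an E2F-type sequence, was in 0 of 61 members and 0.659% of all. Searched letters can overlap, as CGGACC and CCAAT do in HIST2H2BE.

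A typical clustered histone gene was barely detected, and a few genes carried most of the signal. The median of the members' mean levels over all libraries was 0.575 FPKM, and 3 members were at 0 in every library, HIST1H2AA, HIST1H2AK and HIST1H4F. For a transcript of 500 bases, the step between low values put 1 fragment at 0.0802 to 0.118 FPKM, so the 3 fragments that a count of 0 allows correspond to between 0.240 and 0.355 FPKM, as far as counting error goes. In 35 members no library reached 1 FPKM. A mean of at least 1 FPKM, needed to enter the test, was reached by 27 members: 1 H1, 7 H2A, 9 H2B, 4 H3 and 6 H4. Just above this limit were HIST2H3C, HIST2H3A and HIST3H2BB (1.06, 1.07 and 1.18 FPKM), and just below it HIST1H2BO, HIST1H2BN and HIST1H2AM (0.950, 0.849 and 0.838 FPKM). Of the 27 tested, 4 had a Control mean under 1 FPKM and entered through their OGD-R level, among them HIST1H2AI, called below. An OGD-R mean under 1 FPKM was found in 0, so counts over the tested members lean towards higher levels in OGD-R.

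HIST1H2BK, an H2B gene, was the highest, with a mean of 59.3 FPKM over all libraries, followed by HIST1H2AC (29.5), HIST1H2BD (28.4), HIST1H1C (20.1), HIST2H2BE (15.3) and HIST2H2AA3 (15.3 FPKM). These 6 genes made up between 59.3% and 63.1% of the summed FPKM of all members in OGD-R and between 59.2% and 66.8% in Control. A list of 11 members known to give polyadenylated transcripts, drawn up from general knowledge, held 72.1% to 76.0% of the sum in OGD-R and 73.9% to 82.6% in Control. All 11 were tested, against 16 of the other 60 members. The level also went with the annotated 3′ end. In 26 members GENCODE has a transcript that is spliced or extends at least 100 bases past the stem-loop; their median level was 2.26 FPKM, and 20 were tested. In 8 members every transcript with a stem-loop ended within 100 bases of it (median 1.03 FPKM, 4 tested). In 37 members the annotation stopped before any stem-loop (median 0.120 FPKM, 3 tested, HIST1H2BK, HIST1H1C and HIST1H4K). These are descriptions, and a longer annotated length lowers FPKM for the same number of fragments.

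**Figure D1:**
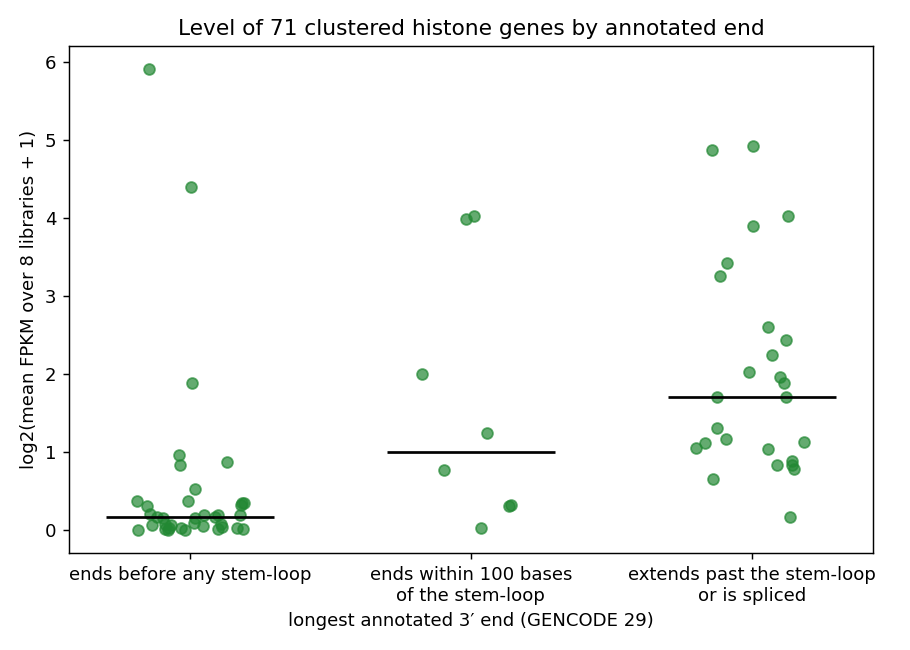
Each point is 1 of the 71 clustered histone genes; the y axis is log2 of its mean FPKM over 8 libraries plus 1, and the x axis is the kind of 3′ end GENCODE annotates. Black lines are medians; the group with extended or spliced transcripts has the highest median (2.26 FPKM), while HIST1H2BK and HIST1H1C stand far above the other members whose annotation ends before a stem-loop.

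Near-identical copies limit what can be said of single genes. For each member, the share of its 100-base transcript windows found in no other annotated gene was computed. It was 100% in 46 members and under 50% in 16 members, 8 of them tested, and 0% in 7. HIST2H2AA3 and HIST2H2AA4, HIST2H3A and HIST2H3C, and HIST2H4A and HIST2H4B are copies on an inverted repeat, with unique shares between 0 and 5.13%, and their values are uncertain one by one. HIST1H4K (0%) and HIST1H2AI (42.3%) are uncertain for the same reason. HIST2H4A also overlaps HIST2H3C, and HIST2H4B overlaps HIST2H3A, on opposite strands.

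The 4 Controls were not alike, and this touches most results below; the labels give no batch, and the pairs used here follow the correlations. Over the genes tested, log2 values correlated across genes at 0.9915 to 0.9934 among OGD-R libraries and at 0.9912 to 0.9922 within each pair of Controls. Between Controls 1 and 2 on one side and Controls 3 and 4 on the other, the correlation was 0.8735 to 0.8805. OGD-R libraries correlated at 0.9398 to 0.9466 with Controls 1 and 2 and at 0.8791 to 0.8868 with Controls 3 and 4. Controls 3 and 4 thus stood apart from all other libraries. The keratinocyte markers KRT5 and KRT14 were measured at 1984 FPKM or above in all 8 libraries. The 8 keratinocyte markers summed to between 11220 and 12400 FPKM in OGD-R and between 7364 and 8413 FPKM in Control. Of these markers 4 were called higher and 2 lower, where 10.2% of all genes tested were called higher and 9.69% lower. Mitochondrial genes took 26.6% to 29.1% of the summed FPKM in OGD-R and 17.5% to 21.9% in Control. With values scaled without these genes, the 5 members called below were called again, 6 members in all were higher and 0 lower, and 13.6% of all genes were called higher and 7.42% lower. Of 7 fibroblast markers, COL1A1 alone entered the test; the summed level of the list lay between 3.82 and 4.99 FPKM in OGD-R and between 0.882 and 8.72 FPKM in Control. Those of 4 melanocyte, 4 leukocyte and 3 endothelial markers stayed at or under 0.666 FPKM in every library, and PDGFRB and PECAM1 were at 0 in all OGD-R libraries.

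The summed level of all 71 members was 288, 285, 289 and 291 FPKM in OGD-R 1 to 4, against 155, 145, 357 and 326 FPKM in Controls 1 to 4. All OGD-R libraries thus lay above Controls 1 and 2 and below Controls 3 and 4. The mean of OGD-R was 1.17 times that of all Controls, 1.92 times that of Controls 1 and 2 and 0.844 times that of Controls 3 and 4. In these bulk samples, a difference in RNA per cell and one in the share of cells in a state cannot be told apart.

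By class, H2A, H2B and H4 had the same layout. H2A summed to between 86.0 and 86.5 FPKM in OGD-R, against 43.9, 45.7, 124 and 108 FPKM in Controls 1 to 4. H2B summed to between 127 and 137 FPKM in OGD-R, against 68.7, 58.3, 162 and 151 FPKM in Controls 1 to 4. H4 summed to between 35.6 and 37.5 FPKM in OGD-R, against 18.4, 18.8, 44.6 and 40.8 FPKM. In all 3 classes the OGD-R libraries sat between the Controls. H3 and H1 did not follow this layout. H3 summed to 11.8, 10.3, 12.0 and 11.0 FPKM in OGD-R 1 to 4, above all Controls, which had 4.06, 5.56, 6.58 and 7.25 FPKM. Much of this difference is HIST1H3H, which averaged 4.38 FPKM in OGD-R and 1.76 FPKM in Control. H3 members under the filter also enter the sum. Among the tested H3 genes HIST1H3H alone lay above all Controls, while HIST1H3E, HIST2H3A and HIST2H3C overlapped. H1, which is almost wholly HIST1H1C, summed to 24.5, 23.7, 22.1 and 21.1 FPKM in OGD-R and to 19.8, 16.4, 19.0 and 18.8 FPKM in Controls 1 to 4. No test was made of these sums, since the members were chosen with results known.

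**Figure D2:**
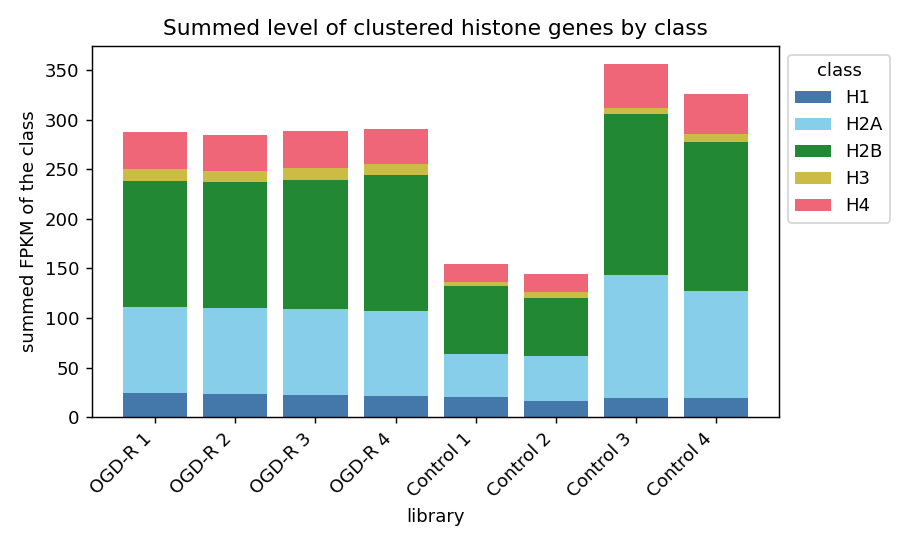
Each bar is 1 library, with the summed FPKM of clustered histone genes stacked by class on the y axis. The OGD-R bars reach between 285 and 291 FPKM, and the Control bars 155, 145, 357 and 326 FPKM.

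By locus, the ratio of Controls 3 and 4 to Controls 1 and 2 was 3.51 in HIST2, 2.06 in HIST1 and 1.34 in HIST3, while in FPKM the Controls lay furthest apart in HIST1. HIST2 summed to 68.9, 71.6, 71.3 and 72.4 FPKM in OGD-R 1 to 4, against 30.6, 28.0, 106 and 99.0 FPKM in Controls 1 to 4. HIST1 summed to between 197 and 202 FPKM in OGD-R, against 112, 104, 232 and 212 FPKM in Controls. HIST3 summed to between 15.6 and 17.2 FPKM in OGD-R, against 12.0, 12.4, 18.0 and 14.7 FPKM in Controls, and overlapped. HIST4H4 was at 0.875, 0.741, 0.845 and 0.668 FPKM in OGD-R and at 0.125, 0.761, 0.322 and 0.266 FPKM in Controls, which overlap through Control 2.

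Across all 8 libraries 5 clustered histone genes were higher in OGD-R and 0 were lower. They were the H2B genes HIST1H2BH and HIST1H2BJ, the H2A genes HIST1H2AG and HIST1H2AI, and the H3 gene HIST1H3H, all in the HIST1 locus. This is 5 of 27 members tested with limma, where 10.2% of 11740 genes were called higher and 9.69% lower (19.9% either way); without adjustment, 8 members had p under 0.05 with a higher level and 0 with a lower one, against 17.2% and 17.0% of all genes tested. The log2 fold change was above 0 in all 27, with a median of 0.34 against 0.018 over all genes tested. In 7 of the 27 the lowest OGD-R value exceeded the highest Control value, as in 15.2% of tested genes. The reverse held in 0 of the 27 and in 14.8% of tested genes.

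HIST1H2BH (chromosome 6, 26251651 to 26253710, plus strand), an H2B gene, had 3.94, 3.07, 3.76 and 3.23 FPKM in OGD-R 1 to 4, while Controls 1 to 4 had 1.18, 1.01, 1.05 and 0.884 FPKM. The groups did not overlap, and the 4 Controls lay close together. Its log2 fold change was 1.14 ± 0.10 (SE; limma adjusted p = 0.000296), the smallest p among the members. HIST1H2AG (27133042 to 27135291, plus strand) was at 4.45, 4.13, 3.49 and 4.18 FPKM in OGD-R and at 1.89, 1.68, 1.74 and 1.72 FPKM in Controls, so its log2 fold change was 0.87 with an SE of 0.09 (adjusted p = 0.00065, limma). HIST1H2BJ (27125897 to 27132750, minus strand), its neighbour across the promoter shown above, was at 3.53, 3.26, 2.83 and 2.81 FPKM in OGD-R and at 1.67, 1.78, 1.14 and 1.06 FPKM in Controls. Its log2 fold change was 0.78 ± 0.13 (SE; limma adjusted p = 0.00538).

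HIST1H3H (27810064 to 27811300, plus strand) was the highest H3 gene, at 4.63, 4.01, 4.32 and 4.58 FPKM in OGD-R and at 1.11, 1.84, 2.002 and 2.10 FPKM in Controls. Its log2 fold change was 0.98 ± 0.14 (SE; limma adjusted p = 0.00215). HIST1H2AI (27808199 to 27808701, plus strand) was at 2.30, 1.54, 2.44 and 2.27 FPKM in OGD-R and at 0.296, 0.249, 1.33 and 0.466 FPKM in Controls, with Control 3 close to OGD-R 2. Its Control mean was 0.585 FPKM, so it entered the test through its OGD-R level, and Controls 1 and 2 lay near the 3-fragment floor. Its log2 fold change was 1.02 ± 0.21 (SE; limma adjusted p = 0.0127). Its unique share is 42.3%, and its other windows are shared with HIST1H2AJ. That copy ran the other way against Controls 1 and 2. HIST1H2AJ was at 0.0540, 0.135, 0.327 and 0.475 FPKM in OGD-R and at 0.574, 1.62, 0.218 and 0.135 FPKM in Controls. The call of HIST1H2AI may thus depend on how fragments were divided between the copies, which was not tested. The sum of the 5 called genes was 18.8, 16.0, 16.8 and 17.1 FPKM in OGD-R and 6.15, 6.56, 7.26 and 6.23 FPKM in Controls. This sum describes genes chosen by the test over all libraries, which favours genes whose Controls lie close together, and single genes such as HIST1H2AI still differed among Controls. All 5 stayed called with either pair of Controls left out, in fits that reuse the libraries by which they were chosen. Of all genes tested, 23.0% were called higher without Controls 3 and 4 and 39.3% without Controls 1 and 2.

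HIST1H1C (26055787 to 26056428, minus strand), the gene of linker histone H1.2, and HIST3H2BB also lay above all Controls in every OGD-R library without passing the test. HIST1H1C was at 23.6, 23.1, 21.2 and 20.6 FPKM in OGD-R and at 19.2, 16.2, 18.6 and 18.3 FPKM in Controls (log2 fold change 0.28, limma adjusted p = 0.0628). Of the other H1 genes, HIST1H1E and HIST1H1D were the next, with means of 0.252 and 0.154 FPKM over all libraries. HIST3H2BB was at 1.21, 1.47, 1.62 and 1.43 FPKM in OGD-R and at 0.708, 1.19, 0.720 and 1.09 FPKM in Controls (limma adjusted p = 0.082).

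**Figure D3:**
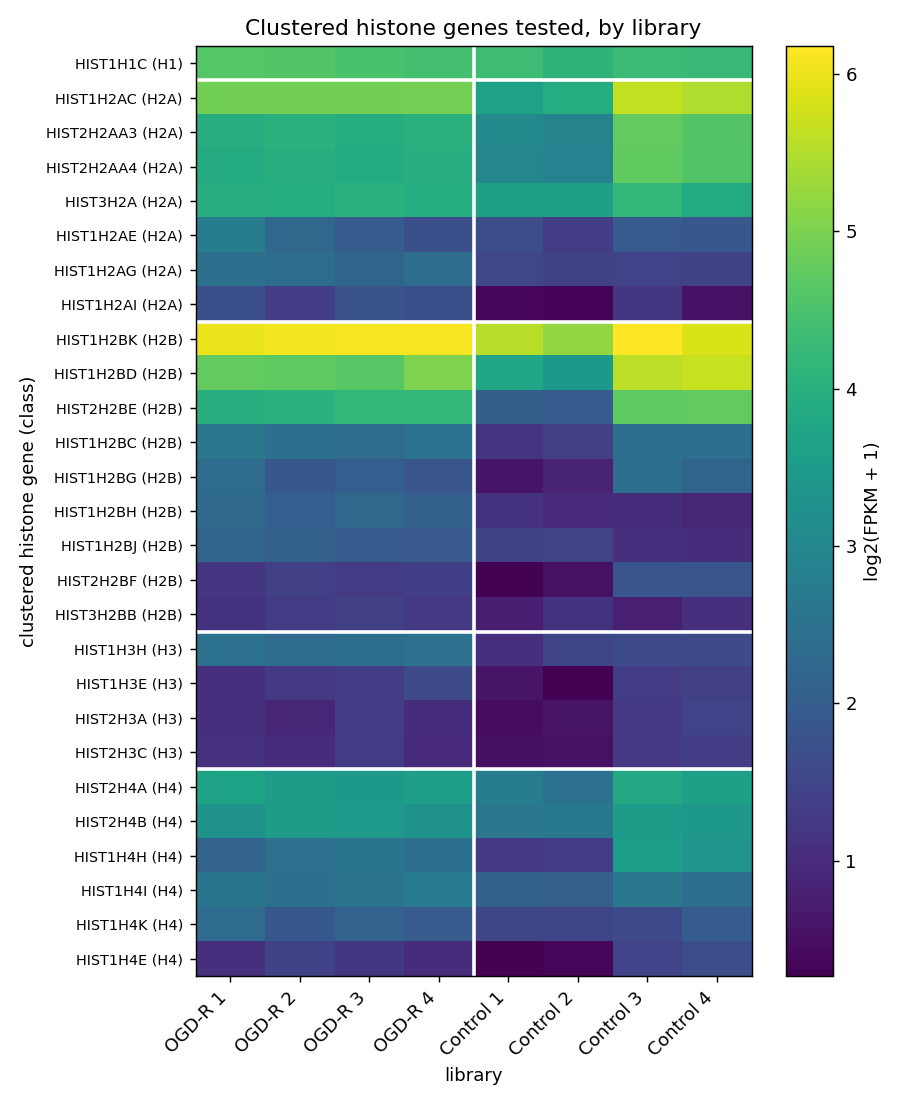
Rows are the 27 clustered histone genes tested, grouped by class; columns are libraries, OGD-R on the left; colour is log2(FPKM + 1). HIST1H2BH, HIST1H2AG, HIST1H2BJ, HIST1H3H and HIST1H2AI are lighter in OGD-R than in every Control, while HIST2H2BE and HIST1H4H are darkest in Controls 1 and 2 and lightest in Controls 3 and 4.

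A second set of members, among them 4 of the 6 highest, lay between the Controls. In 8 of the 27 tested, all OGD-R libraries were above Controls 1 and 2 and below Controls 3 and 4, where 6.79% of tested genes had this order. They were HIST1H2AC, HIST2H2AA3, HIST2H2AA4, HIST1H2BD, HIST2H2BE, HIST2H2BF, HIST1H4H and HIST1H4E, and 7 of the 8 are on the list of polyadenylated members. None of the 8 passed the test over all libraries; for HIST2H2BE and HIST1H4H the limma adjusted p was 0.49 and 0.976. HIST2H2BE (chromosome 1, 149884459 to 149886652, minus strand), an H2B gene with a long annotated tail, was at 14.7, 15.6, 17.2 and 17.2 FPKM in OGD-R and at 3.06, 2.99, 25.4 and 26.1 FPKM in Controls 1 to 4. HIST1H4H (chromosome 6, 26277609 to 26285638, minus strand), an H4 gene with spliced transcripts, was at 3.46, 4.62, 4.87 and 4.45 FPKM in OGD-R and at 1.41, 1.53, 11.0 and 9.20 FPKM in Controls. In both, Controls 1 and 2 were the lowest libraries and Controls 3 and 4 the highest.

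HIST1H2BD (26158146 to 26171349, plus strand) was at 26.0, 25.2, 24.1 and 32.0 FPKM in OGD-R and at 12.5, 9.68, 47.2 and 50.1 FPKM in Controls. HIST1H2AC (26124145 to 26139116, plus strand) was at 29.1, 29.2, 29.4 and 29.9 FPKM in OGD-R and at 11.5, 14.1, 48.8 and 43.5 FPKM in Controls. The group means of HIST1H2AC were nearly equal, 29.4 ± 0.366 FPKM in OGD-R and 29.5 ± 19.4 FPKM in Control (SD, n = 4 each), which hides this order. HIST2H2AA3 and its copy HIST2H2AA4 had the same layout. Their copies' values cannot be told apart, and HIST2H2AA3 was at 14.5, 15.3, 14.2 and 15.1 FPKM in OGD-R and at 7.22, 6.57, 26.2 and 23.1 FPKM in Controls. HIST1H2BK (27146418 to 27146798, minus strand), the highest member, was at 62.9, 66.0, 67.6 and 68.4 FPKM in OGD-R and at 45.5, 36.1, 71.3 and 56.6 FPKM in Controls. All OGD-R libraries of HIST1H2BK lay above Controls 1, 2 and 4 and below Control 3.

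The remaining members of this order were lower in level. HIST2H2BF, an H2B gene, was at 1.27, 1.63, 1.44 and 1.58 FPKM in OGD-R and at 0.233, 0.439, 2.59 and 2.59 FPKM in Controls. HIST1H4E was at 1.10, 1.64, 1.36 and 1.04 FPKM in OGD-R and at 0.205, 0.283, 1.73 and 2.21 FPKM in Controls. In both, the Controls differed among themselves by more than any pair of OGD-R libraries. HIST1H2BC, HIST1H2BG and HIST1H2AE lay above Controls 1 and 2 without lying below Controls 3 and 4. HIST1H2BC was at 5.10, 4.40, 4.06 and 4.75 FPKM in OGD-R and at 1.26, 1.64, 4.46 and 4.38 FPKM in Controls. HIST1H2BG was at 4.10, 2.64, 3.11 and 2.56 FPKM in OGD-R and at 0.520, 0.784, 4.28 and 3.49 FPKM in Controls. HIST1H2AE, the partner of HIST1H2BG across 283 bases, was at 5.73, 3.83, 2.97 and 2.30 FPKM in OGD-R and at 2.16, 1.54, 2.89 and 2.66 FPKM in Controls, with OGD-R 4 below Controls 3 and 4.

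With 1 pair of Controls left out, the counts of called members differed. Against Controls 1 and 2 alone, 24 of 28 members tested were higher in OGD-R and 0 lower, where 23.0% of genes tested were called higher and 32.5% lower by limma; the median log2 fold change was 0.88. Against Controls 3 and 4 alone, 7 of 28 were higher and 8 lower, where 39.3% of genes were called higher and 28.5% lower (67.8% either way), and the median was -0.044. All 11 members on the polyadenylated list were higher in the first of these fits, and 2 were higher and 7 lower in the second. HIST2H2BE had log2 fold changes of 2.09 and -0.64 in the 2 fits, HIST1H2BD of 1.20 and -0.84, and HIST1H4H of 1.11 and -1.05. HIST1H2BH had 1.10 and 1.19 and HIST1H2AG 0.86 and 0.89. Each fit rests on 2 Controls that correlate at 0.991 or above with each other, so its p-values may measure technical spread, and both fits share the OGD-R libraries.

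**Figure D4:**
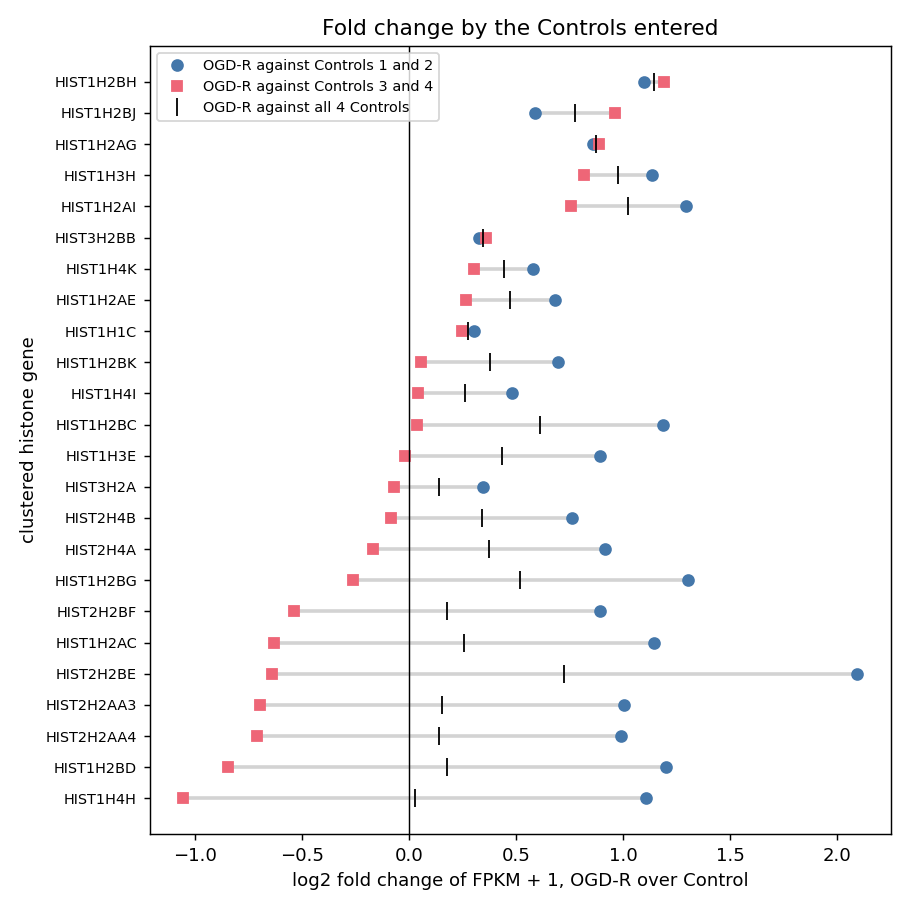
The x axis is the log2 fold change of OGD-R over Control on the FPKM + 1 scale; each row is 1 of the 24 clustered histone genes tested in all 3 fits (HIST2H3A, HIST2H3C and HIST1H4E were not). Circles use Controls 1 and 2, squares Controls 3 and 4 and black ticks all Controls; HIST1H2BH and HIST1H2AG have marks that nearly coincide, and HIST1H4H spans 1.11 to -1.05.

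The other H4 and H3 genes tested were mostly lower in Controls 1 and 2 than in the other libraries. HIST2H4A was at 11.9, 10.3, 9.70 and 11.0 FPKM in OGD-R and at 5.81, 4.67, 13.2 and 11.2 FPKM in Controls; its copy HIST2H4B was at 8.93, 10.5, 9.85 and 8.85 FPKM in OGD-R and at 5.11, 5.27, 10.7 and 9.67 FPKM in Controls. HIST1H4K, which has no window of its own, was at 4.06, 2.74, 3.37 and 2.90 FPKM in OGD-R and at 1.85, 1.82, 1.98 and 2.94 FPKM in Controls. Here Control 4 stood apart from the other Controls. HIST1H4I was at 4.89, 4.47, 4.80 and 5.45 FPKM in OGD-R and at 3.30, 3.13, 5.19 and 4.29 FPKM in Controls. HIST1H3E was at 1.12, 1.39, 1.53 and 2.10 FPKM in OGD-R and at 0.490, 0.228, 1.46 and 1.63 FPKM in Controls. HIST2H3A and HIST2H3C, which cannot be told apart, lay between 0.883 and 1.50 FPKM in OGD-R. In Controls 1 and 2 both were at or under 0.507 FPKM, and in Controls 3 and 4 between 1.38 and 1.72 FPKM. The groups overlapped in all of these.

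The other HIST3 members were at either end of the range of levels. HIST3H2A, an H2A gene, was at 14.5, 14.1, 15.5 and 14.1 FPKM in OGD-R and at 11.3, 11.2, 17.2 and 13.6 FPKM in Controls (limma adjusted p = 0.515). HIST3H3, the testis H3 gene, stayed at or under 0.0827 FPKM in every library, below the 3-fragment floor.

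Members that face each other across a shared promoter, 12 pairs with starts less than 1000 bases apart, could differ widely in level. FPKM is per length, so levels are set side by side per length here. HIST2H2BE averaged 16.2 FPKM in OGD-R and 14.4 FPKM in Control, while HIST2H2AC, 323 bases away, averaged 1.09 and 0.482 FPKM. HIST1H2BK averaged 66.2 FPKM in OGD-R and 52.3 FPKM in Control, while HIST1H2AH, 331 bases away, averaged 0.0988 and 0.189 FPKM, under the 3-fragment floor. HIST1H2AG and HIST1H2BJ, both called, differed by 1.29 times in their mean over all libraries.

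Low members were too few in fragments for firm statements. Of all 71 members, 12 lay above every Control in every OGD-R library and 1 below, where 11.0% and 8.28% of all rows did so; 10 lay between the Control pairs, where 3.85% of all rows did. The untested ones above were HIST1H1D, HIST1H2AM, HIST1H2BF, HIST1H3B and HIST1H4J, and HIST1H2BM was the one below, with no library above 0.222 FPKM. HIST1H2AM was at 1.29, 1.18, 1.62 and 1.18 FPKM in OGD-R and at 0.515, 0.598, 0.0972 and 0.217 FPKM in Controls. HIST1H4J was at 1.04, 1.35, 1.29 and 0.742 FPKM in OGD-R and at 0.342, 0.480, 0.121 and 0.276 FPKM in Controls. Both were called with the filter lowered to a mean of 0.1 FPKM (log2 fold changes 0.79 and 0.69), as were HIST1H3B and HIST1H2BF (0.40 and 0.59). HIST1H2AM and HIST1H4J have unique shares of 16.0% and 22.3%, so their fragments may belong to copies.

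S phase genes, when summed, had the opposite order among the Controls to the summed clustered histones. The summed level of 32 S phase and replication genes was 1117, 1076, 991 and 1066 FPKM in OGD-R 1 to 4, against 1534, 1559, 246 and 218 FPKM in Controls 1 to 4. PCNA, the sliding clamp of DNA replication, was at 203, 201, 181 and 203 FPKM in OGD-R and at 282, 285, 41.9 and 32.9 FPKM in Controls. The cyclin E gene CCNE2 was at 4.70, 4.95, 5.04 and 5.44 FPKM in OGD-R and at 7.13, 5.79, 0.431 and 0.431 FPKM in Controls, and CCNE1 at 3.56 ± 0.249 FPKM in OGD-R and 3.98 ± 1.76 FPKM in Control (SD, n = 4 each). Of the list 0 genes were higher and 0 lower over all libraries, where 10.2% of all genes tested were called higher and 9.69% lower. At an unadjusted limma p under 0.05 the counts were also 0 and 0, against 17.2% and 17.0% of all genes tested. The median log2 fold change of the list was 0.76, which lies between -0.51 against Controls 1 and 2 and 2.04 against Controls 3 and 4. The summed level of the clustered histones was thus lowest in the Controls with the highest S phase levels. The polyadenylated list held 73.9% to 82.6% of that sum in Control. The 60 members not on that list were also lower in Controls 1 and 2 when summed. They had 34.1, 37.7, 61.9 and 59.2 FPKM in Controls 1 to 4 and 80.2, 72.2, 76.6 and 69.8 FPKM in OGD-R 1 to 4. Not all members followed the sum. The called HIST1H2BJ was higher in both Controls 1 and 2 than in both Controls 3 and 4. So were further low members that did not enter the test, among them HIST1H3G, HIST2H2AC, HIST1H2AM, HIST1H3B, HIST1H4J, HIST1H2AJ and HIST1H3C. These are examples, and neither their number nor the share over all genes was counted. The part of the cell cycle in these results was not tested.

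Histone genes outside the clusters, most of which give polyadenylated transcripts made throughout the cell cycle, were higher in Controls 1 and 2 than in Controls 3 and 4 when summed. Their 12 genes summed to 890, 881, 837 and 847 FPKM in OGD-R, against 1040, 1053, 541 and 474 FPKM in Controls 1 to 4. Of 11 tested 1 was higher and 0 lower, where 10.2% of all genes tested were called higher and 9.69% lower. H1F0, the linker histone H1.0 known from differentiated cells, was at 79.3, 81.8, 80.8 and 81.1 FPKM in OGD-R and at 57.3, 61.7, 67.2 and 69.6 FPKM in Controls (log2 fold change 0.34 ± 0.09, SE; limma adjusted p = 0.029). H2AFZ, the gene of H2A.Z, was at 154, 156, 139 and 154 FPKM in OGD-R and at 271, 260, 59.1 and 41.9 FPKM in Controls. H2AFX, whose protein is phosphorylated at DNA breaks, was at 49.7 ± 5.86 FPKM in OGD-R and 42.5 ± 34.4 FPKM in Control (SD, n = 4 each). The replacement H3.3 genes H3F3A and H3F3B averaged 179.6 ± 3.56 and 108.8 ± 5.57 FPKM in OGD-R and 164 ± 49.7 and 109.4 ± 17.4 FPKM in Control (SD, n = 4 each; limma adjusted p = 0.554 and 0.984).

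**Figure D5:**
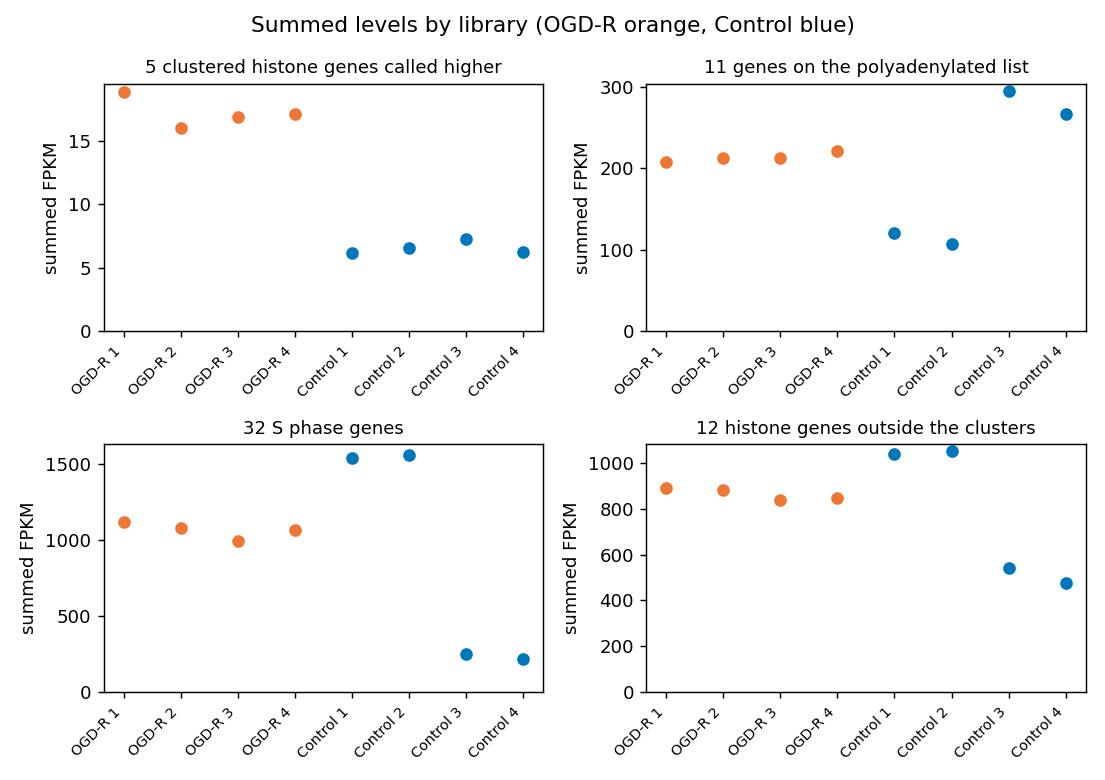
Each panel gives, for the 8 libraries on the x axis, the summed FPKM of 1 gene set on the y axis, OGD-R in orange and Control in blue. The 5 called histone genes are higher in OGD-R than in every Control; the 11 polyadenylated histone genes are lowest in Controls 1 and 2, where the 32 S phase genes are highest.

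With all libraries, genes that make histone mRNA or load histones are read against the same shares over all genes. These are 10.2% higher and 9.69% lower, or 17.2% and 17.0% without adjustment. Of 20 genes of histone transcription and 3′ end processing 1 was higher and 0 lower: MIF4GD, which links SLBP to translation, was at 10.1 ± 1.35 FPKM in OGD-R and 7.31 ± 0.675 FPKM in Control (SD, n = 4 each; log2 fold change 0.42 ± 0.11, SE; limma adjusted p = 0.0328). SLBP, the stem-loop binding protein, was at 27.2, 29.1, 29.8 and 27.3 FPKM in OGD-R and at 32.3, 40.2, 19.1 and 18.9 FPKM in Controls, the order of the S phase genes. NPAT, the cyclin E-CDK2 substrate that activates histone genes, was at 6.85, 6.43, 6.97 and 7.05 FPKM in OGD-R and at 5.82, 6.66, 5.52 and 4.82 FPKM in Controls (limma adjusted p = 0.147). CASP8AP2, a component of the histone locus body, was at 7.31, 6.91, 6.36 and 7.16 FPKM in OGD-R and at 5.03, 6.11, 3.07 and 3.41 FPKM in Controls (limma adjusted p = 0.0517). Of 22 histone chaperone and assembly genes 0 were called with all libraries, and at an unadjusted p under 0.05 there were 1 higher and 0 lower. Leaving out a pair of Controls changed these counts. Against Controls 1 and 2 alone, 3 processing genes were higher and 9 lower, and 1 chaperone gene was higher and 9 lower. In that fit 23.0% of all genes tested were called higher and 32.5% lower. Against Controls 3 and 4 alone, 11 processing genes were higher and 3 lower, and 16 chaperone genes were higher and 0 lower. In this second fit 39.3% of all genes tested were called higher and 28.5% lower. The summed level of the chaperone genes lay between 818 and 844 FPKM in OGD-R, against 940, 948, 500 and 482 FPKM in Controls 1 to 4.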

How the data were processed

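RNA-seq values of 8 HaCaT libraries were analysed, 4 OGD-R and 4 Control, grouped by their titles. Each deposited table holds one library's value for every gene. No unit stands in the headers; the values deposited by the authors were read as FPKM. Aligner, counting tool, genome build and annotation: not given in the sources used here. Per the labels' protocols, the kits named are NEBNext and SMARTer mRNA kits, and whether reads keep their strand is not given. In 940 single-exon genes, between 11 and 19 of 75 to 99 low values per library lay within 0.5% of one constant divided by the gene's length, so the value of 1 fragment rests on few values. FPKM divides by a length the authors chose, so levels of genes with several annotated ends depend on it.

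The test, on log2(FPKM + 1), was that of limma 3.58.1 in R 4.3.3 (intensity trend, two-sided, Benjamini-Hochberg adjustment over all genes tested, threshold 0.05). The fit took genes whose mean across libraries reached 1 FPKM. Such fold changes understate the change of low genes. The edgeR model foreseen for counts was not used, because the values are not counts. Alternatives covered pseudocounts, filters, scalings, moderation, weights, a replicate block, each library left out and each pair of Controls left out; a filter and a pseudocount changed together were added after seeing the data. The test was also tried on simulated data. There every library, Controls included, was given the spread seen among OGD-R libraries. It therefore cannot show how the test behaves with Controls that split into pairs, as here.

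The members and all gene lists were chosen with earlier results of these data known. Genes were named by rule: every member past the threshold, the 3 highest members of each class, all members of the smaller loci, members at the filter's edge, and called or fixed genes of the other lists. Other members named were chosen after their values were seen. Positions, transcripts and stem-loops come from GENCODE 29 (GRCh38), where all 71 members were found by ID with the same symbol. Promoter sequences come from RefSeq (GRCh38.p14) and were matched for 61 members through older symbols. Same-numbered OGD-R and Control libraries correlated between 0.045 and 0.0646 in their deviations from the group means, and differently numbered ones between -0.106 and 0.113. Values were above 0 between OGD-R 1 or 2 and Controls 1 or 2, and between OGD-R 3 or 4 and Controls 3 or 4. They were below 0 otherwise. The deviations of the Controls hold the split between their pairs, so this check cannot decide whether the numbers pair the samples. Identical values above 0 numbered at most 1 in any pair of libraries. Plots used Python 3.11.15 and matplotlib 3.10.9.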

Additional observations from a re-analysis of the deposited data

Results flagged for a closer look

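HIST1H4K stood out in 1 library: Control 4 was at 2.94 FPKM, whereas the other Controls lay between 1.82 and 1.98 FPKM. The gap took 0.86 of the Control range, past the 95% critical value of Dixon's test that marks a sample far from the others in a group of 4. Of 66 groups examined this was the only one past that limit, and chance flags about 1 in 20. The transcript has no 100-base window of its own, and Control 4 was the library in which 1 fragment was worth most (0.118 FPKM on 500 bases).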

How the results depend on the processing

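The 5 higher members stayed called under all 22 alternatives run, with the largest limma adjusted p at 0.0467, for HIST1H2AI. Their log2 fold changes ranged from 0.59 to 2.16. These alternatives did not pool near-identical copies, so the division of fragments between HIST1H2AI and HIST1H2AJ was not tested. Leaving out 1 library at a time gave 5 to 6 higher and 0 lower members and medians of 0.22 to 0.53. The number of higher members was 9 of 54 tested with the filter at a mean of 0.1 FPKM (10.6% of all genes), 8 of 68 without a filter (7.86%) and 7 of 68 without a filter at a pseudocount of 0.1 (7.27%). Without Controls 3 and 4 it was 24, the median log2 fold change 0.88 and the log2 difference of the summed level 0.94, against 0.35 with all libraries. Without Controls 1 and 2 there were 8 lower members, the median was -0.044 and the difference of the sum -0.24. There the sign turned for 15 of the 27 members, 7 of them without passing the test; the other 8 were HIST1H2AC (-0.63), HIST2H2AA3 (-0.70), HIST2H2AA4 (-0.71), HIST1H2BD (-0.84), HIST2H2BE (-0.64), HIST2H2BF (-0.54), HIST1H4H (-1.05) and HIST1H4E (-0.38), each called lower; the cause was not tested. With the replicate block 5 members were higher and 0 lower, while calls over all genes fell to 625 higher and 507 lower, against 1202 and 1138. Whether the numbers pair the samples is not known. Scaling without mitochondrial genes, which took 17.5% to 29.1% of the summed FPKM, gave 6 higher members and 1600 higher and 871 lower genes. Of single members, 24 further results passed the threshold under an alternative and not in the main test. Depth limits the 35 members that stay under 1 FPKM in every library.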
